A study of Rattus norvegicus with 12 samples.

Results

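The miRNAs described here come from the imprinted Dlk1-Dio3 region of rat chromosome 6, from the stretch that precedes the miR-379 to miR-410 cluster: miR-337, miR-540, miR-665, miR-431, miR-433, miR-127, miR-434, miR-136, miR-341 and miR-370. Assays were taken by name, and the PCR panel held 14 assays for 8 of these 10 names, out of 375 miRNA assays in all. miR-665 and miR-341 were not analysed here. The names were proposed after lower levels of several of these miRNAs at P25 than at E20 had been seen in the same samples. Their change with age was thus selected on, and it is given below as a description. Calls at an adjusted p are counted beside the share of the whole panel and support nothing about the group.

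The samples were parotid salivary gland acinar cells of Sprague Dawley rats (labelled albino), cut out of frozen sections by laser capture microdissection, a method in which a laser lifts chosen cells from a slide. There were 12 samples: 3 at E20 (embryonic, shortly before birth), and 3 each at P5, P15 and P25 (days after birth), with no treatment and no genetic change. The replicates came from separate litters, and at the early ages the divided heads were embedded for sectioning, whereas beyond P5 the gland was dissected out first. Age and embedding therefore cannot be told apart between E20 or P5 on one side and P15 or P25 on the other. miRNAs were measured by quantitative PCR, in which the threshold cycle (CT) falls by about 1 for each doubling of template. The level of an assay is given on the log2 scale, by subtracting its CT from the array median (that of all miRNAs with a CT there), so that 0 is the array median and a higher value is more miRNA.

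Genes of the Dlk1-Dio3 region are imprinted, that is, expressed from only the maternal or only the paternal copy. The paternal copy gives the protein-coding genes Dlk1, Rtl1 and Dio3, and the maternal copy gives noncoding RNAs, among them Meg3 and a transcript antisense to Rtl1, from which the miRNAs are cut. The miRNAs of the antisense transcript are fully complementary to the Rtl1 mRNA and can direct its cleavage. The region is known for high expression in embryo, placenta and brain and for a decline in many tissues after birth.

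In the rat RefSeq annotation (GRCr8) the order along the chromosome is Meg3, then Mir337, Mir540 and Mir665, then Rtl1, whose bounds enclose the 5 hairpins Mir431, Mir433, Mir127, Mir434 and Mir136, then Mir341 and Mir370. Mir370 lies within a further noncoding RNA gene. The mature sequences of the miRNAs on which the results turn are shown first, since assays of 1 arm, of both arms, or of an arm that the panel name leaves unstated are compared below. They are RefSeq entries for rat, 5′ to 3′, and capitals mark the seed (bases 2 to 8), the stretch that pairs with target mRNAs.
miR-337-5p: cGGCGUCAugcaggaguugau
miR-337-3p: uUCAGCUCcuauaugaugccuuu
miR-431: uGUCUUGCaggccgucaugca
miR-433-5p: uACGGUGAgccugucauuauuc
miR-433-3p: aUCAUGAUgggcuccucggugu
miR-127-3p: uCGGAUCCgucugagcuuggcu
miR-434-5p: aGCUCGACucaugguuugaacca
miR-434-3p: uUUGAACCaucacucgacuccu
miR-370-5p: cAGGUCACgucucugcaguuacac
miR-370-3p: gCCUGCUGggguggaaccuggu
All lie on the plus strand, from miR-337-5p at chr6:134321170-134321190 to miR-370-3p at chr6:134354538-134354559. Within the Rtl1 bounds, miR-431 is at chr6:134326468-134326488, miR-433-3p at chr6:134327421-134327442, miR-127-3p at chr6:134328510-134328531 and miR-434-3p at chr6:134330451-134330472. The table holds no miR-136-5p entry, and no miR-136 sequence is printed.

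Each seed differed from the others. Of the 15 mature entries under the 10 names, 1 shared its seed with another of the 693 rat miRNAs in the table, miR-370-5p with miR-1193-3p. The group is thus held together by its place in the genome and not by a common seed. The longest runs of identical bases between any of the 15 were 9 bases long: CGUCAUGCA was found in miR-337-5p and miR-431, and UUUGAACCA in miR-434-5p and miR-434-3p. In the last pair this run is the start of the 3p arm, positions 1 to 9, and the end of the 5p arm.

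The arrays differed in how much they detected. E20 arrays gave a CT for 282 to 306 of the 375 assays, P5 arrays for 224 to 307, P15 arrays for 179 to 273 and P25 arrays for 202 to 223. P15 replicate 1 detected the fewest (179). Its array median lay 1.08 cycles above its median over the 120 assays detected in all samples, a gap of 1.83 to 2.56 cycles on the other arrays, so the P15 values are also given without it. The 9 assays of epithelial miRNAs (the miR-200 family, miR-203 and miR-205) were detected in all 12 samples. Acinar and duct cells were not told apart by markers here.

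A CT was returned for 40 of the 42 wells of the 14 assays at E20 (95.2%), 37 at P5 (88.1%), 28 at P15 (66.7%) and 24 at P25 (57.1%). Without P15 replicate 1 the P15 count was 21 of 28 wells (75.0%). Over all 375 assays the share was 79.1% at E20, 69.8% at P5, 62.1% at P15 and 57.6% at P25, so the group started above the panel and ended at its level. Among assays with a CT in all 3 E20 samples, 13 belonged to the group and 263 to the panel. Of these, 3 of the 13 (23.1%) and 31 of the 263 (11.8%) gave no CT in any P25 sample. The 3 were mmu-miR-370, rno-miR-337 and mmu-miR-337-5p.

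Loss of detection differed along the chromosome, where the assays also started from different CTs. The 7 assays of miRNAs within Rtl1 went from 21 of 21 wells at E20 to 16 at P25, the 5 assays between Meg3 and Rtl1 from 13 of 15 wells to 7, and the 2 miR-370 assays from 6 of 6 wells to 1. Their mean CTs at E20 were 26.5 to 31.3, 30.6 to 37.8, and 32.6 and 33.3. Within Rtl1, mmu-miR-136 and miR-434-5p (30.3 and 30.7 at E20) each kept 1 of 3 wells at P25. Position and starting CT were not separated by a test. A well without a CT has no level, and only 7 of the 14 assays were detected in at least 2 of 3 samples at every age and could enter the fit. That filter required detection at P25, so the 7 that entered are not representative of the 14.

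**Figure D1:**
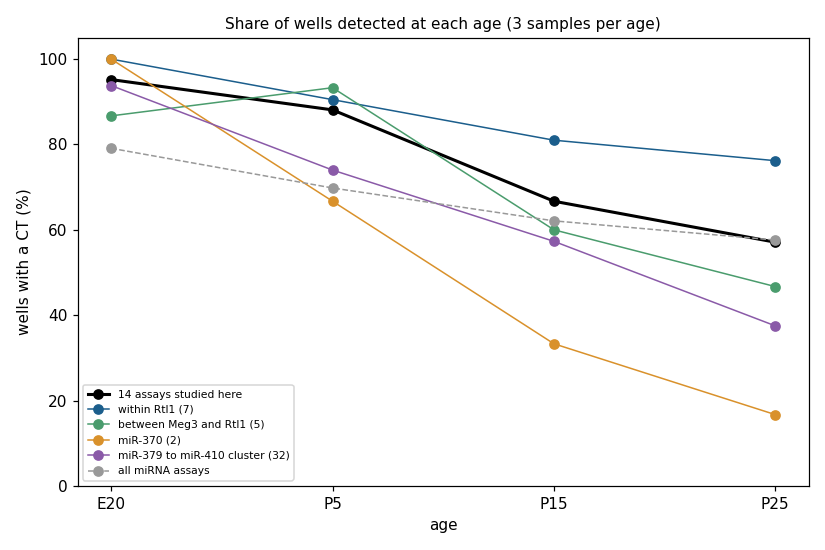
Share of wells with a CT (y axis, percent) at each age (x axis) for the 14 assays, their 3 positional groups, the miR-379 to miR-410 cluster and all 375 assays. The 14 assays drop from 95.2% to 57.1%, the miR-370 pair drops furthest, and the assays within Rtl1 stay highest at P25 (76.2%).

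In the fit (limma over 192 assays, 1 mean per age, adjusted p under 0.05 by Benjamini-Hochberg as the call), 3 of the 7 tested assays were called lower at P25 than at E20: miR-433, miR-434-3p and miR-431. Of all 192 assays, 15 were called in that direction, 7.81%. Across the 4 ages 2 of the 7 were called, miR-433 and miR-434-3p, beside 15 of the 192 (7.81%). From P5 to P25 miR-434-3p alone was called lower, beside 3 of the 192 (1.56%). Because this contrast is what brought the miRNAs together, nothing is read from these shares. All 7 fitted changes from E20 to P25 were negative, with a median of -3.66 on the log2 scale, against 0.15 for the 192 assays. With small nuclear RNAs in place of the array median as the reference, limma called 0 of the 192 assays and 1 had an unadjusted p under 0.05, which was not of the group, while the 7 changes stayed negative with a median of -2.66.

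miR-433, whose hairpin lies second within Rtl1, had the most negative fitted change of the 192 assays. Its levels were 2.04, 1.53 and 1.37 at E20, -3.57, -0.18 and -1.49 at P5, 0.01, 0.30 and -1.86 at P15, and -5.05, -3.54 and -3.64 at P25. Each E20 value was above every later value, P5 and P15 overlapped, and the P25 values were below all others except the lowest P5 value, which lay just under the highest P25 value. The order of the means was E20 (1.65 ± 0.35, SD, n = 3), P15 (-0.52 ± 1.17), P5 (-1.74 ± 1.71) and P25 (-4.08 ± 0.85). The fitted change was -3.39 (SE 0.91) from E20 to P5 and -5.72 (SE 0.91) from E20 to P25, a 52.9-fold lower level. The change to P5 was not called, and limma called 0 of the 192 assays between E20 and P5. From E20 to P15 the mean changed by -2.17, and by -2.43 without P15 replicate 1. Its mean CT rose from 30.5 to 37.9, so the P25 value was read within a few cycles of the detection limit of 40.

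miR-434-3p had levels of 4.58, 4.60 and 4.05 at E20, 2.61, 4.75 and 3.86 at P5, 1.76, 3.36 and 3.77 at P15, and -3.59, 0.08 and 1.83 at P25. The means stepped down in order of age, 4.41 ± 0.31, 3.74 ± 1.08, 2.96 ± 1.06 and -0.56 ± 2.77 (SD, n = 3), and every pair of neighbouring ages overlapped, P15 and P25 by 1 value. From E20 to P15 the mean changed by -1.45, and by -0.85 without P15 replicate 1, which held the lowest P15 value. The fitted change was -0.67 (SE 1.12) from E20 to P5 and -4.97 (SE 1.12) from E20 to P25, 31.4-fold lower. Unlike miR-433, most of its difference thus fell after P5, with -4.30 (SE 1.12) from P5 to P25. That last call was lost against small nuclear RNAs or the median in the authors' table, without normalization, and with Holm adjustment. It was also lost with missing wells set to CT 40, and with CT above 37 or 35 as not detected. The same held with a filter of 2 of 3 samples at 1 or more ages. It was lost, too, without any single E20 sample, P5 replicate 2 or 3, P15 replicate 2 or P25 replicate 1 or 2. The calls across the 4 ages of both miR-433 and miR-434-3p were lost without E20 replicate 1, against small nuclear RNAs and without normalization. Whether the 2 miRNAs differed in timing was tested as a difference between assays, below. The other arm, miR-434-5p, had values of 2.07, 1.83 and 0.50 at E20, 1.28 and 1.62 in 2 P5 samples, 0.67 in 1 P15 sample and -0.07 in 1 P25 sample, and could not be fitted.

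miR-431, the first hairpin within Rtl1, had levels of 0.97, 0.45 and 0.99 at E20, -0.75, 0.88 and -1.60 at P5, -1.99, -1.73 and -0.98 at P15, and -1.04 and -4.85 in the 2 P25 samples with a CT. Its means also stepped down with age, from 0.80 ± 0.31 (SD, n = 3) to -2.95 ± 2.69 (n = 2), and all P15 and P25 values were below all E20 values. The fitted change from E20 to P25 was -3.23 (SE 0.97), with 1 P25 value imputed. The mean change from E20 to P15 was -2.37, and -2.16 without P15 replicate 1. The change to P25 lost its call when any single E20 sample, P5 replicate 3 or P25 replicate 2 was left out, and the change was -1.90 without P25 replicate 2. Its call was also lost against small nuclear RNAs and with Holm adjustment. With CT above 37 or 35 as not detected, miR-431 could not be fitted.

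miR-127 gave the lowest CT of the 14 assays at E20 (mean 26.5), which is also a property of its primers and does not rank it above the others in molecules. Its levels were 6.21, 5.55 and 5.07 at E20, 4.84, 5.03 and 4.57 at P5, -1.08, 5.00 and 3.73 at P15, and 0.63, 2.92 and 2.29 at P25. E20 and P5 did not overlap but were separated by less than 0.1, and every P25 value was below every E20 and P5 value. The fitted change from E20 to P25 was -3.66 (SE 1.19, 95% interval -6.20 to -1.13), 12.7-fold lower, and was not called. It was called with the replicate block, with the median taken over fully detected miRNAs as reference, without normalization, with CT above 37 or 35 taken as not detected, and without P15 replicate 1 or P15 replicate 2. P15 replicate 1, the array with the fewest detected assays, held the lowest value of all 12, and the mean change from E20 to P15 was -3.06 with it and -1.24 without it.

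miR-136, the last hairpin within Rtl1, was measured by a mouse and a rat assay. The rat assay gave 1.04, 1.50 and 0.79 at E20, -1.79, 2.70 and 0.58 at P5, -5.09 and 1.26 in 2 P15 samples, and -4.28, -1.88 and -1.56 at P25. E20 and P25 did not overlap, whereas the P5 and P15 values overlapped with both. The fitted change from E20 to P25 was -3.68 (SE 1.43), with 1 P15 value imputed, and was not called, except with the replicate block and without P15 replicate 1. Here too P15 replicate 1 was lowest, and the mean of measured values changed by -3.02 from E20 to P15 with it and by 0.15 without it, when 1 value was left. The mouse assay gave 2.13, 2.64 and 0.76 at E20, 3.82 and 0.72 in 2 P5 samples, 1.15 and -0.62 in 2 P15 samples and 0.26 in 1 P25 sample, and was not fitted.

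Between Meg3 and Rtl1, miR-337-3p was detected in all 12 samples. Its levels were -0.63, 0.00 and -1.04 at E20, -0.13, -1.55 and -1.72 at P5, -1.66, -2.01 and -2.13 at P15, and -0.07, -1.48 and -4.46 at P25. The P25 values reached across those of the other ages, but for the highest E20 value. The fitted change from E20 to P25 was -1.45 (SE 0.96, 95% interval -3.48 to 0.58), which misses the call and leaves room both for no change and for a difference as large as that of miR-431. It was -0.22 without P25 replicate 3 and -2.41 without P25 replicate 1. The mean change from E20 to P15 was -1.37, and -1.51 without P15 replicate 1. miR-337-5p gave 0.06, 0.20 and -1.37 at E20, -0.59, -0.95 and -1.33 at P5, -0.98 and -1.27 in 2 P15 samples, and no CT at P25.

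miR-540-3p, the next hairpin, was also detected in all 12 samples, and gave -2.43, -1.09 and -4.97 at E20, -0.65, -4.65 and -5.57 at P5, -2.12, -3.50 and -2.83 at P15, and -4.08, -4.75 and -4.42 at P25. Every P25 value was below every P15 value, and all other pairs of ages overlapped. The fitted change from E20 to P25 was -1.59 (SE 1.17, 95% interval -4.07 to 0.89). It was -0.72 without E20 replicate 2 and -2.66 without E20 replicate 3. The mean change from E20 to P15 was 0.01, and -0.34 without P15 replicate 1. miR-540-5p was detected in 4 samples, as few as the mouse miR-370 assay: 1 at E20 (-5.55), 2 at P5 (-2.61 and -5.54) and 1 at P25 (-4.38).

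miR-370, the last of the names along the chromosome, was tested by no fit. The mouse assay gave -0.46, -0.65 and -0.20 at E20, -0.80 in 1 P5 sample and no CT at P15 or P25. The rat assay gave -0.82, -0.69 and -2.10 at E20, -2.15, -2.37 and -2.80 at P5, -6.95 and -2.34 in 2 P15 samples and -6.28 in 1 P25 sample. In the rat assay every later value was below every E20 value.

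**Figure D2:**
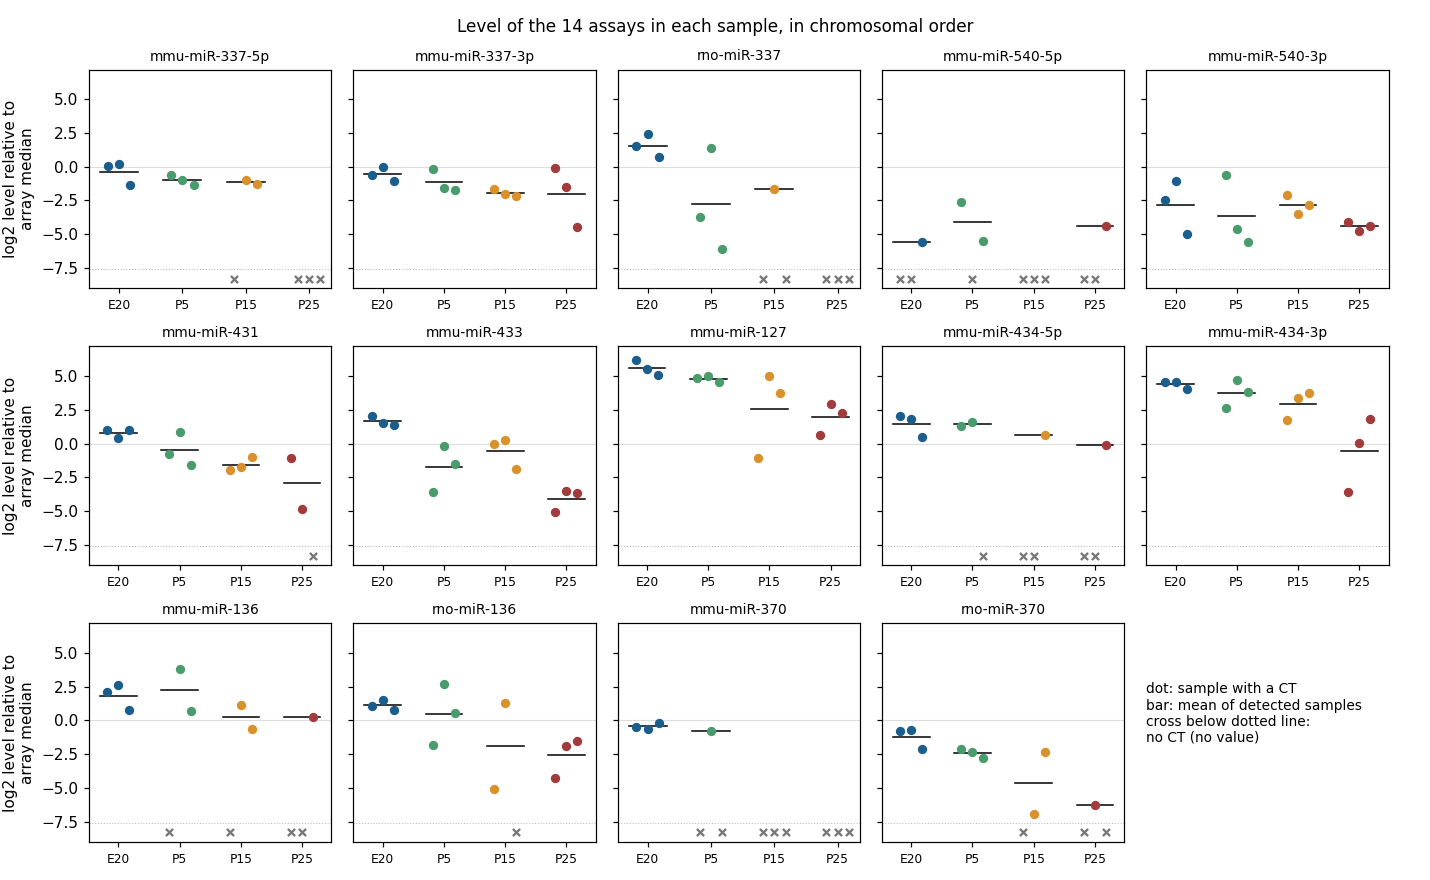
Level of each of the 14 assays (log2 relative to the array median, y axis) in each sample at each age (x axis), in order along the chromosome, with bars at the mean of detected samples and crosses for samples without a CT. In the 7 assays of miRNAs within Rtl1 (miR-431 to miR-136) and the rat miR-370 assay, every P25 value present is below every E20 value. For mmu-miR-136, miR-434-5p and rno-miR-370 this rests on 1 P25 value each. Among assays with a CT in all 6 samples of these ages, it held for 4 of 6 here and 27 of 156 over the panel (17.3%). The mouse miR-370 assay has no CT at P25, nor have rno-miR-337 and miR-337-5p, which lie between Meg3 and Rtl1. miR-337-3p and miR-540-3p overlap between E20 and P25, and miR-540-5p is higher in its only P25 sample than in its only E20 sample.

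By position, the 5 fitted assays within Rtl1 had changes from E20 to P25 between -5.72 and -3.23 (median -3.68), and the 2 between Meg3 and Rtl1 had -1.59 and -1.45. The filter kept out rno-miR-337 and miR-337-5p, which lie in the latter stretch and gave no CT at P25. With a loose filter and missing wells set to CT 40, both of these and both miR-370 assays were called lower at P25, so the contrast by position holds only for the assays that were fitted. The values of E20 and P25 did not overlap, with P25 lower, for 4 of the 6 assays that had a CT in all 6 samples (rno-miR-136, miR-127, miR-434-3p and miR-433), beside 27 of 156 over the panel, 17.3%. The 4 all lie within Rtl1. The 2 positional groups did not overlap in their fitted changes, though their intervals did, and whether they differed was tested only assay against assay.

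**Figure D3:**
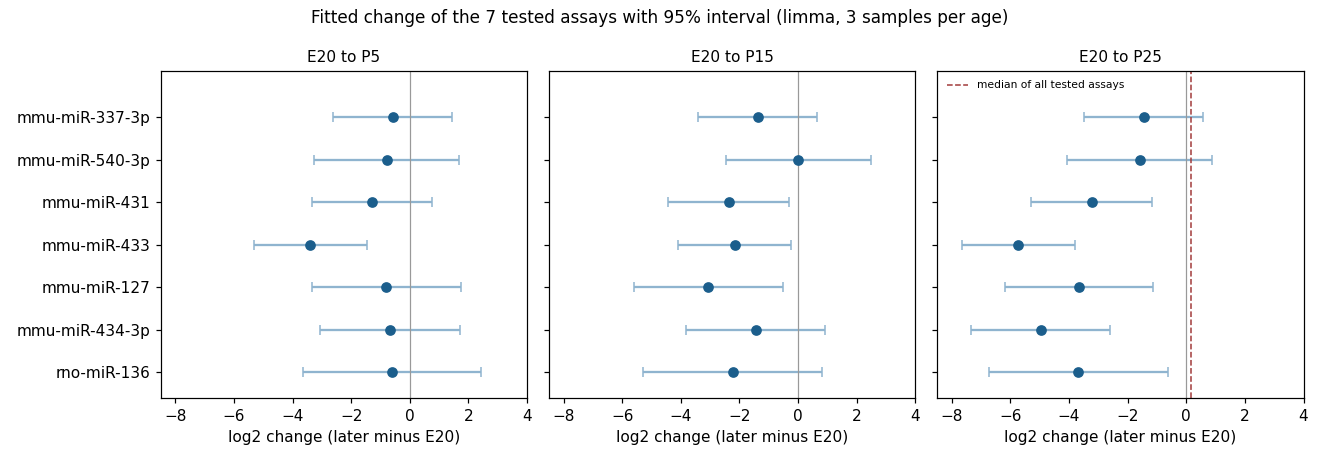
Fitted log2 change (x axis) of the 7 tested assays from E20 to P5, P15 and P25, with 95% intervals from limma (3 samples per age), in order along the chromosome. At P5 only the interval of miR-433 lies below 0; at P25 those of the 5 assays within Rtl1 do, and those of miR-337-3p and miR-540-3p cross it.

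The difference in CT between 2 assays on the same array does not depend on the array reference. The names were not chosen on such differences. They were proposed after lower levels of several at P25 had been seen, and the fitted assays had to be detected at P25. Both can limit how far the changes of 2 assays differ, so the result below is not independent of the choice. It was taken for each of the 21 pairs of the 7 fitted assays and compared over the 4 ages by an exact permutation test of the F statistic. None of the 21 differences varied with age at an adjusted p under 0.05, and 0 had an unadjusted p under 0.05. The lowest were miR-431 against miR-337-3p (exact p = 0.0586, adjusted p = 0.621), rno-miR-136 against miR-433 (exact p = 0.0673, adjusted p = 0.621) and miR-433 against miR-337-3p (exact p = 0.0888, adjusted p = 0.621). For the last of these the difference in level moved from 2.21 in favour of miR-433 at E20 to -2.07 at P25, a shift of -4.28. For miR-434-3p against miR-433 the exact p was 0.225 (adjusted p = 0.730), so the different timing described above was not told apart from the spread between samples. These differences had wide spread, and a p that misses the threshold does not show that the miRNAs moved alike.

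Assays of the same hairpin were compared within samples where both gave a CT, as a description, because no such pair had 2 shared samples at every age. The CT of the mouse miR-136 assay minus that of the rat assay was -0.74 ± 0.74 (SD, 7 samples). miR-337-5p differed from miR-337-3p by -1.03 to 0.46 cycles in all 8 shared samples (mean -0.37), up to P15, yet gave no CT at P25, where miR-337-3p did in all 3. miR-434-5p came 2.61 ± 0.77 cycles later than miR-434-3p in 7 shared samples. The assay named rno-miR-337 behaved otherwise: the CT of miR-337-3p minus its own was 1.75 to 2.46 at E20, but -3.58 and -4.34 in P5 replicates 1 and 3 and 2.96 in P5 replicate 2. rno-miR-337 itself gave 1.52, 2.46 and 0.70 at E20, -3.71, 1.40 and -6.07 at P5, -1.65 in 1 P15 sample and no CT at P25. The 2 arms above differ throughout in sequence, and the panel name does not say which arm rno-miR-337 reads.

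The neighbouring miR-379 to miR-410 cluster, cut from the same side of the imprinted region, had 32 assays, of which 9 could be fitted. Of these, 3 were called lower at P25 than at E20 (mmu-miR-541, mmu-miR-382 and mmu-miR-377), 8 of 9 changes were negative and the median was -2.95. Detection in that cluster went from 90 of 96 wells at E20 to 36 at P25. Of 19 assays for imprinted miRNAs of other loci (among them the miR-297, miR-466, miR-467 and miR-669 families), 6 were fitted. All 6 were of the miR-297, miR-466 and miR-669 families, so no miR-335, miR-296, miR-298 or miR-675 assay was fitted. Of the 6, 0 were called by limma (also 0 at an unadjusted p under 0.05). All 6 changes were positive, with a median of 1.34. Detection in the whole list went from 37 of 57 wells at E20 (64.9%) to 23 at P25 (40.4%), beside 79.1% and 57.6% over the panel. No test compared these lists.

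Some markers of other cell types changed over the same ages. Summed over its 14 assays on the linear scale, where the array median is 1, the group had 63.2 to 121 at E20, 40.8 to 90.2 at P5, 5.69 to 49.5 at P15 and 3.21 to 11.1 at P25. The assays with the lowest CTs weigh most in such a sum. At E20 and P5 it was mostly miR-127 and miR-434-3p, and a CT also depends on the primers. The 6 assays of striated muscle miRNAs (miR-1, miR-133a, miR-133b, miR-206 and miR-499) summed to 20.5 to 74.8 at E20, 0.0895 to 48.5 at P5, 1.15 to 29.7 at P15 and 1.12 to 3.73 at P25. Of their 3 fitted assays 2 were called lower at P25, and neither miR-206 nor rno-miR-1 gave a CT at P25. In P5 replicates 1, 2 and 3 the group stood at 40.8, 90.2 and 43.0 and the muscle assays at 0.0895, 48.5 and 15.2, the same order of samples in both. In P15 replicates 1, 2 and 3 the group stood at 5.69, 49.5 and 30.9 and the muscle assays at 16.5, 29.7 and 1.15, with replicate 2 highest in both and the other two in opposite order. At E20 the group stood at 121, 97.4 and 63.2 in replicates 1, 2 and 3. The muscle assays stood there at 30.4, 74.8 and 20.5, with replicate 3 lowest in both and the others in opposite order. At P25 the group stood at 3.21, 9.42 and 11.1 and the muscle assays at 3.73, 1.12 and 1.50. Replicate 1 was thus lowest in the group and highest in the muscle assays. The order of samples was the same only at P5. The medians of both sums were lowest at P25.

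Mesenchymal miRNAs (miR-199a, miR-214, miR-143 and miR-145) were detected in every sample, and their 6 assays summed to 55.3 to 82.1 at E20 and 91.1 to 170 at P25. Within that list the members moved in opposite directions: miR-214 was called lower at P25 (-4.53, SE 0.91) and miR-145, a miRNA of smooth muscle, was called higher (4.74, SE 1.43). The 7 assays of nerve miRNAs went from 16 of 21 wells at E20 to 7 at P25, and the summed level from 2.04 to 28.9 at E20 to 0.935 to 13.7 at P25. The 3 assays of erythrocyte miRNAs went from 9 of 9 wells to 4. Over the panel the share of wells fell from 79.1% to 57.6%. Of the 2 fitted nerve assays 0 were called, miR-124 at -2.72 (SE 1.22) and miR-128 at -0.32 (SE 1.68). Leukocyte and endothelial assays are given by their sums, 3.14 to 7.52 and 5.91 to 15.3 at E20, and 3.14 to 9.44 and 6.52 to 29.4 at P25. Of their fitted assays (4 and 1), 0 were called between E20 and P25. The part of muscle, mesenchymal or nerve cells in the lower levels of the group was not tested. In captured tissue, fewer cells of a type and less RNA per cell cannot be told apart.

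**Figure D4:**
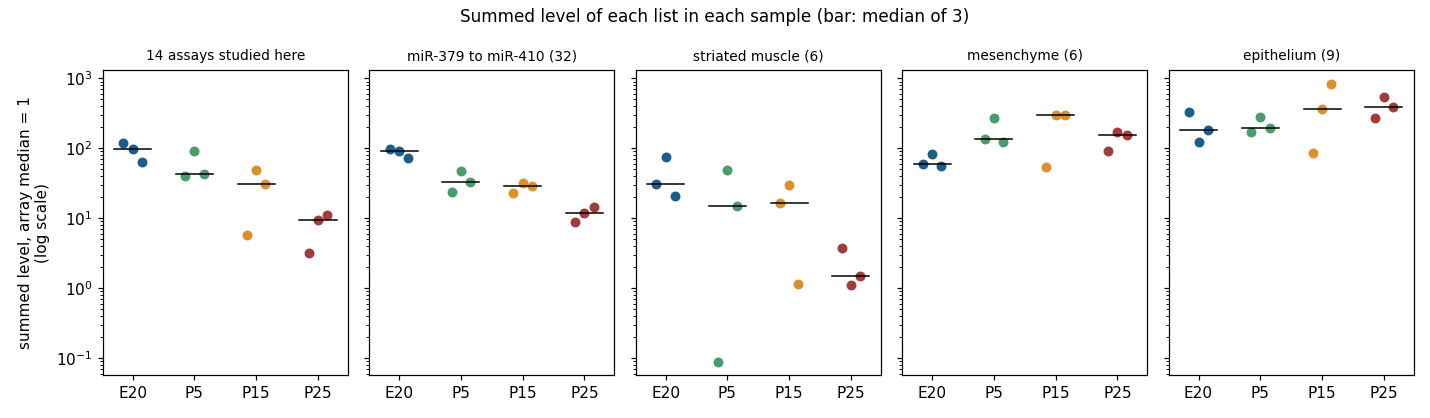
Summed level of the 14 assays, the miR-379 to miR-410 cluster and the striated muscle, mesenchymal and epithelial miRNA lists (array median = 1, log y axis) in each sample by age, with bars at the median of 3. The 14 assays and the muscle list have their lowest medians at P25 (9.42 and 1.50), and within P5 replicate 2 is highest and replicate 1 lowest in both (90.2 and 40.8, and 48.5 and 0.0895). At the other ages the order of samples differs, and within P25 replicate 1 is lowest for the 14 assays (3.21) and highest for the muscle list (3.73).

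The profile most like that of the group was sought among 115 other assays with a CT in all 12 samples, by Pearson correlation with the mean of the 5 assays of the group detected throughout (miR-127, miR-434-3p, miR-433, miR-540-3p and miR-337-3p). The highest were miR-214 (r = 0.922), miR-205 (r = 0.856), miR-301a (r = 0.821), miR-106b (r = 0.750) and miR-324-5p (r = 0.747). miR-214 is a mesenchymal miRNA and miR-205 an epithelial one, and their changes from E20 to P25 were -4.53 (SE 0.91) and -2.23 (SE 0.76). miR-205 does not stand for its list. Of the 9 epithelial assays 2 had a negative change, the median change was 2.02, and 0 were called. miR-301a changed by -5.04 (SE 1.04), miR-106b by -3.12 (SE 1.05) and miR-324-5p by -2.64 (SE 1.11). The 12 points share their ages and the array reference, so these values describe likeness in time and give no test.

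**Figure D5:**
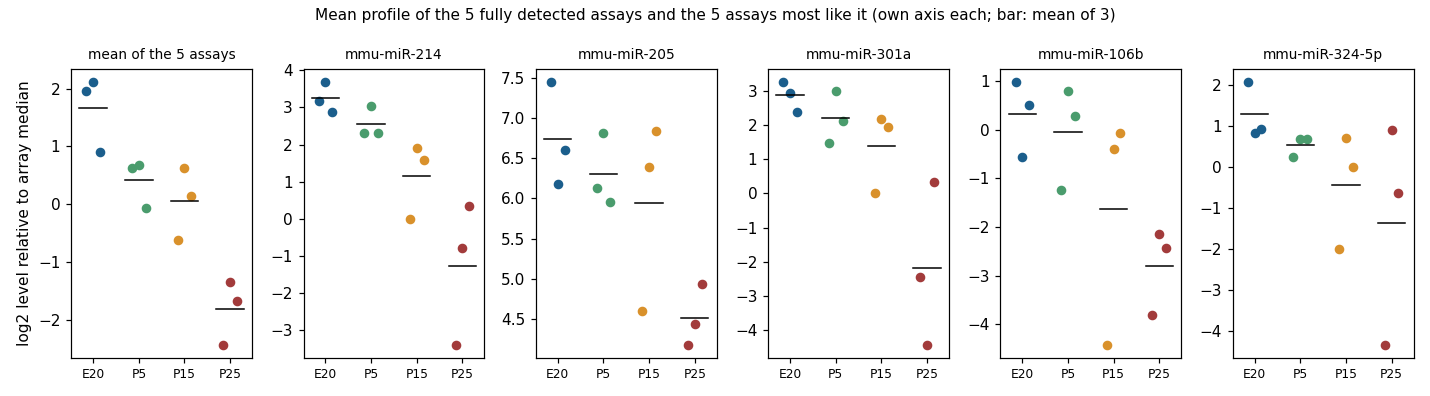
Mean log2 level of the 5 fully detected assays of the group (first panel) and the 5 other assays most correlated with it over 12 samples, by age, each on its own y axis, with bars at the mean of 3. The profiles step down towards P25, from r = 0.922 for miR-214 to r = 0.747 for miR-324-5p.

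Within the group itself the 5 fully detected assays varied in how alike they were. Over the 12 samples the median correlation of their 10 pairs was 0.208, against 0.102 for the 7140 pairs of all 120 such assays. miR-434-3p and miR-433 had r = 0.769, and miR-127 and miR-434-3p r = 0.723. After the mean of each age was removed, these became 0.473 and 0.553, and that of miR-434-3p with miR-337-3p was -0.847. The median of the 10 pairs was then -0.189, below the 0.193 of the pairs of all 120 assays, whereas it had been above with the ages left in. All values share the array reference, which alone can give pairs a common part, and they are given as a description.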

How the data were processed

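CT values (threshold cycles, used here as a score) were deposited by the authors in a table of the whole series, from a locked nucleic acid SYBR Green panel for mouse and rat miRNAs run on total RNA of captured cells. How CT thresholds were set is not given in the sources used here. Wells without a CT were left empty (1478 of 4500 miRNA wells), and a CT of 40 was taken as the limit. Each CT was then subtracted from its array's median CT over detected miRNAs. Assays detected in at least 2 of 3 samples at every age (192 of 375) were kept, and missing values were imputed from 10 nearest neighbours (2 of 84 wells of the group). After the study's methods, limma 3.58.1 in R 4.3.3 fitted 4 age means without a replicate block, with Benjamini-Hochberg adjustment over the 192. Pair tests, figures and sequences used Python 3.11.15, numpy 2.4.6, pandas 2.3.3 and matplotlib 3.10.9. The fit and the permutation test were tested on simulated data.

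The members and the lists were chosen with earlier results of these data known. Named miRNAs are all assays of the 10 names and the 5 others most correlated with their mean, besides marker and cluster assays named where a count required it, after their values were seen. Same-numbered samples deviated together between P5, P15 and P25 (all 9 correlations over 0.1, from 0.13 to 0.56) but not with E20 (from -0.23 to 0.12). Samples of unlike number were not correlated, so these values do not show that the numbers pair samples. Replicate 1 also detected the fewest assays at P5, P15 and P25 (224, 179 and 202), and the part of detection in these correlations was not tested. The labels give litters no number, and the replicate block used below takes the replicate numbers as they stand. The planned test of arms and of mouse against rat assays could not be run, because no pair had 2 shared samples at every age, and the test of pairs of fitted assays was chosen after seeing the data. Precision is limited by 3 arrays per age, and CT files give no read depth.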

Additional observations from a re-analysis of the deposited data

How the results depend on the processing

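All 7 fitted changes from E20 to P25 stayed negative under every reference, imputation, filter and left-out sample in which they could be fitted. Their median was -3.66, and -2.66 relative to small nuclear RNAs, -5.39 without normalization, -2.20 with the filter at 1 or more ages (14 assays, 13 negative) and -4.95 with the loose filter and missing wells at CT 40 (14 assays, 13 negative). The median of all assays moved with the reference (0.15, 1.15 against small nuclear RNAs, -1.58 without normalization), and the group's median minus it was -3.81 in each of these. A reference shifts all assays of an array alike, so this constant gap follows from arithmetic and is no check. The count called lower from E20 to P25 was 3, and 0 against small nuclear RNAs (where limma called 0 of 192 assays, and 1 had an unadjusted p under 0.05, 0 of the 7), 7 with the loose filter, 1 with Holm adjustment and 5 with the replicate block, which adds miR-127 and rno-miR-136. Leaving out single samples gave 2 to 5, with 5 without P15 replicate 1. Across the 4 ages the count of 2 became 0 against small nuclear RNAs, without normalization and with CT above 37 as not detected (3 assays left), 1 with missing wells at CT 40, CT above 35 as not detected (2 left) or Holm adjustment, and 5 with the loose filter. Leaving out single samples gave 0 to 3, with 0 without E20 replicate 1, 1 without E20 replicate 2 or 3, P5 replicate 3 or P25 replicate 1 or 2, and 3 without P15 replicate 1. From P5 to P25 the count of 1 became 0 against small nuclear RNAs or the median in the authors' table, without normalization, with missing wells at CT 40, the filter at 1 or more ages, CT above 37 or 35 as not detected, or Holm adjustment. Leaving out single samples gave 0 to 2, with 2 without P15 replicate 1. The replicate block changed neither of these 2 counts, and with it 0 of 10 pairs of assays were called (smallest adjusted p = 0.244, exact permutation). The pair test called 0 under each of its other alternatives (smallest adjusted p from 0.203 to 0.871), though with CT above 37 and 35 as not detected 2 pairs and 1 pair were left. An unadjusted p under 0.05 was reached by 2 pairs with missing wells at CT 40 and without P5 replicate 1 or P25 replicate 3, and by 1 pair without P5 replicate 2 or P15 replicate 1 or 3. Detected wells at P15 were 28, and 17 with CT above 35 as not detected. At P25 they were 24, and 12 and 8 with CT above 37 and 35. The causes were not tested. Depth is not counted by this assay, and values above CT 35 are the least certain.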
